A study of Mus musculus with 30 samples.

Results

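The genes followed were Bdnf, which encodes brain-derived neurotrophic factor, and the precursor genes of 9 neuropeptides, Npy (neuropeptide Y), Sst (somatostatin), Vip (vasoactive intestinal peptide), Cck (cholecystokinin), Penk (proenkephalin), Pdyn (prodynorphin), Tac1 (the precursor of substance P), Crh (corticotropin-releasing hormone) and Cort (cortistatin). They were chosen by name as signalling peptides that mark neuron classes, and found by matching the symbols to the Ensembl identifiers of the deposited table, where they are 10 of 48820 genes. All 10 passed the filter on low counts in every fit, with 25 (Crh) to 8741 (Cck) counts per library. In the text CORT stands for the hormone corticosterone, and Cort only for the cortistatin gene.

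The data are 30 RNA-seq libraries of hippocampus and frontal cortex from wild type adult male C57BL/6J mice, an inbred strain, aged 8 to 12 weeks and housed singly, in a model of Gulf War Illness. Every mouse had drunk CORT at 200 mg/L in 0.6% ethanol for 7 days, had been injected with the acetylcholinesterase inhibitor diisopropyl fluorophosphate (DFP) at 4 mg/kg on day 8, and had then had CORT in alternate weeks to a total of 5 weeks. The groups differ in the last injection, either saline with collection at 6 h (3 libraries per tissue) or lipopolysaccharide (LPS), a bacterial outer membrane component that sets off systemic inflammation, at 0.5 mg/kg under the skin with collection at 6, 12 or 24 h (4 libraries per tissue and time). Mice without this exposure are not part of the comparison, and saline was sampled at 6 h alone, so LPS at 12 and 24 h differs from saline in collection time as well as in treatment. The comparisons ask how the expression of these genes followed LPS over 24 h in each tissue of mice with that history. Of 16 mice, 14 gave both tissues, and each library of a group came from a mouse with a code of its own.

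Libraries held 16826882 to 33034295 counts. Levels are given as CPM, counts scaled to library size with TMM factors. Lcn2, an acute inflammatory gene used as a check of the labels, was at 0.0595 to 0.447 CPM in the 6 saline libraries and at 2.86 to 22.7 CPM in all 24 LPS libraries. The summed level of 10 hippocampal principal neuron markers was 935 to 1071 CPM in hippocampus and 215 to 284 CPM in cortex, and that of 10 neocortical markers 214 to 306 and 532 to 799 CPM, so the tissues carried the markers of their labels. The hippocampal libraries A222 (saline) and A261 (LPS 12 h) and the cortical library A224 (saline) had the highest shares of Ttr, a choroid plexus gene, at 0.115%, 0.226% and 0.0962% of counts.

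Neuropeptides are cut from larger precursors inside dense-core vesicles, released by strong firing and read by G protein-coupled receptors, whereas brain-derived neurotrophic factor acts through the receptor tyrosine kinase encoded by Ntrk2. In hippocampus and neocortex Sst, Npy, Vip, Cck and Cort mark overlapping sets of GABAergic interneurons, with Cck also made by principal neurons. Bdnf is made mainly by excitatory neurons, and Penk, Pdyn and Tac1 are abundant in projection neurons of the striatum, which lies beneath the frontal cortex. Several of these genes are classical targets of CREB, a transcription factor that binds the cyclic AMP response element (CRE) in promoters.

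The upstream sequence of Vip is shown because Vip was the only member that passed the main edgeR test against saline. It holds a short form of the CRE, as do the upstream sequences of some other members. The annotated Vip gene lies on the plus strand at chr10:5639218-5647617 (GRCm38), and the 250 bases before its start, chr10:5638968-5639217 on the plus strand, read as follows in RefSeq (GRCm38.p6), with the capitals marking the motif TGACG at position -79 from the start.
Vip upstream: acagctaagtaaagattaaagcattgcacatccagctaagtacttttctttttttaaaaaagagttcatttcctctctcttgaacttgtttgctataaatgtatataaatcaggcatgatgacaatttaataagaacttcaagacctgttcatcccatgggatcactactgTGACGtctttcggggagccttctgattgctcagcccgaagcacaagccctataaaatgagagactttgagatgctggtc

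RefSeq windows from 250 bases before to 50 bases after a start were found for 8 of the 10 members, 15 windows in all, 7 of them for Bdnf, whose transcripts start at several places. Only the 250 bases before the start of each window were searched, on both strands, for the full CRE, TGACGTCA, and for its shorter form. That form is TGACG or CGTCA, which the full CRE also contains. The short form was present in 6 of the 15 windows, 1 each for Bdnf (of its 7), Cort, Tac1, Cck, Vip and Sst, and the full CRE in that of Sst alone. Of 32851 mouse windows searched over the same 250 bases, 17.8% held the short form and 1.55% the full CRE. The sites are given with 30 bases each, 5′ to 3′ on the strand of the gene, with the motif in capitals, so that the full CRE of Sst can be set beside the shorter matches.
Sst, chr16:23890874-23890903, minus strand: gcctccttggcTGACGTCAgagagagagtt
Vip, chr10:5639127-5639156, plus strand: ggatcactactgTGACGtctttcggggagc
Cck, chr9:121495724-121495753, minus strand: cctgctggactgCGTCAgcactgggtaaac
Tac1, chr6:7555006-7555035, plus strand: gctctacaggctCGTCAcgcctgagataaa
Tac1, chr6:7554852-7554881, plus strand: tccctaaaattgCGTCAtttcgaacacaat
Cort, chr4:149126764-149126793, minus strand: ctccggcttgtgCGTCAccgcgtgagtgtg
Bdnf, chr2:109692389-109692418, plus strand: tatgacagctcaCGTCAaggcagcgtggag
Counted from the RefSeq start of each transcript, the motifs began at -48 in Sst, -79 in Vip, -47 in Cck, -43 and -197 in Tac1, -18 in Cort and -35 in Bdnf. GENCODE places the start of Sst at 23890958 and that of Tac1 at 7554879, further upstream than RefSeq does, so the Sst site and the -43 site of Tac1 fall inside those gene models, and the Bdnf site lies before a start inside the Bdnf gene. A match of letters does not show a bound site.

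Sst and Cort encode related peptides, and their coding sequences are shown because the counts of a short gene such as Cort, 85 to 190 per library, depend on telling it apart from the far more abundant Sst. The stretch is the best-matching pair of 42 bases in frame, near the end of each coding sequence, and capitals mark bases shared by both.
Sst, chr16:23889735-23889776, minus strand: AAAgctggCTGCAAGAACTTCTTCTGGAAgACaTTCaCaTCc
Cort, chr4:149125273-149125314, minus strand: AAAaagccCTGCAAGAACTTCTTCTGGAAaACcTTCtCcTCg
Of the 42 bases 32 (76.2%) were shared, and the longest shared run was 21 bases, shorter than the 150-base reads. How the authors treated reads that fit more than 1 gene is not given in the sources used here.

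In the main edgeR fit, Vip was the only member that passed the test in a comparison of LPS with saline. It did so at 24 h in both tissues. In hippocampus Vip was at 19.7, 22.9 and 18.5 CPM in the 3 saline libraries. It was at 21.7, 25.2, 20.9 and 24.0 CPM 6 h after LPS, at 19.3, 21.6, 16.8 and 15.5 CPM at 12 h, and at 16.9, 15.3, 16.8 and 15.8 CPM at 24 h. All 4 libraries at 24 h lay below all saline libraries and below all libraries at 6 h, and those at 12 h overlapped both neighbours. Against saline, Vip fell by 0.33 ± 0.10 (SE) on the log2 scale at 24 h, a fold of 0.796 (95% interval 0.692 to 0.915, edgeR adjusted p = 0.0243).

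In frontal cortex, where Vip was more abundant, the saline libraries were at 65.6, 54.3 and 52.1 CPM. The libraries at 6 h after LPS were at 63.1, 63.6, 65.2 and 59.2 CPM, those at 12 h at 54.5, 47.3, 42.3 and 48.4 CPM, and those at 24 h at 44.8, 45.6, 44.4 and 44.2 CPM. The libraries at 24 h stood within 1.5 CPM of each other and below every saline library and every library at 6 h. Vip fell by 0.35 ± 0.08 against saline at 24 h, a fold of 0.783 (0.693 to 0.884, edgeR adjusted p = 0.0139). At 12 h the value against saline was -0.25 (edgeR adjusted p = 0.0896) with overlapping groups, and it passed with limma-voom (0.0227) and without A258 (0.0247). In bulk tissue, fewer Vip-expressing cells and less Vip RNA per cell cannot be told apart.

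Between the LPS groups, which leave the saline libraries out of the contrast, the fall of Vip was larger. These groups also differ in collection time, with no saline at 12 or 24 h, so LPS and collection time cannot be told apart here. From 6 to 24 h Vip fell by 0.50 ± 0.09 in hippocampus (edgeR adjusted p = 0.00105) and by 0.50 ± 0.08 in cortex (adjusted p = 0.00339), a fold of 0.709 in each. In cortex it had already fallen by 0.39 ± 0.08 from 6 to 12 h (adjusted p = 0.0172), with no overlap between the 2 groups. The hippocampal value from 6 to 12 h was -0.33 (adjusted p = 0.0621), with overlap, and passed with DESeq2 (0.0356), limma-voom (0.0133), no filter (0.00127) and without A259 (0.0149). From 12 to 24 h the values were -0.17 and -0.11 (adjusted p = 0.403 and 1). At 6 h against saline Vip was 0.17 in hippocampus (95% interval -0.03 to 0.36) and 0.14 in cortex (-0.03 to 0.32), neither past the test.

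The fall from 6 to 24 h passed the test under all 18 alternatives run in each tissue. The fall against saline was less firm. With library totals in place of TMM factors its adjusted p was 0.0619 in hippocampus and 0.0548 in cortex. It also rested on single libraries, with adjusted p = 0.0564 and 0.178 in hippocampus without the saline libraries A222 and A224, 0.0747 and 0.0689 without the 24 h libraries A275 and A278, and 0.143 in cortex without the saline library A223. The cortical fall from 6 to 12 h had adjusted p = 0.056 without A240, 0.0672 without A260, 0.0516 without A261 and 0.0592 with limma-voom.

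**Figure D1:**
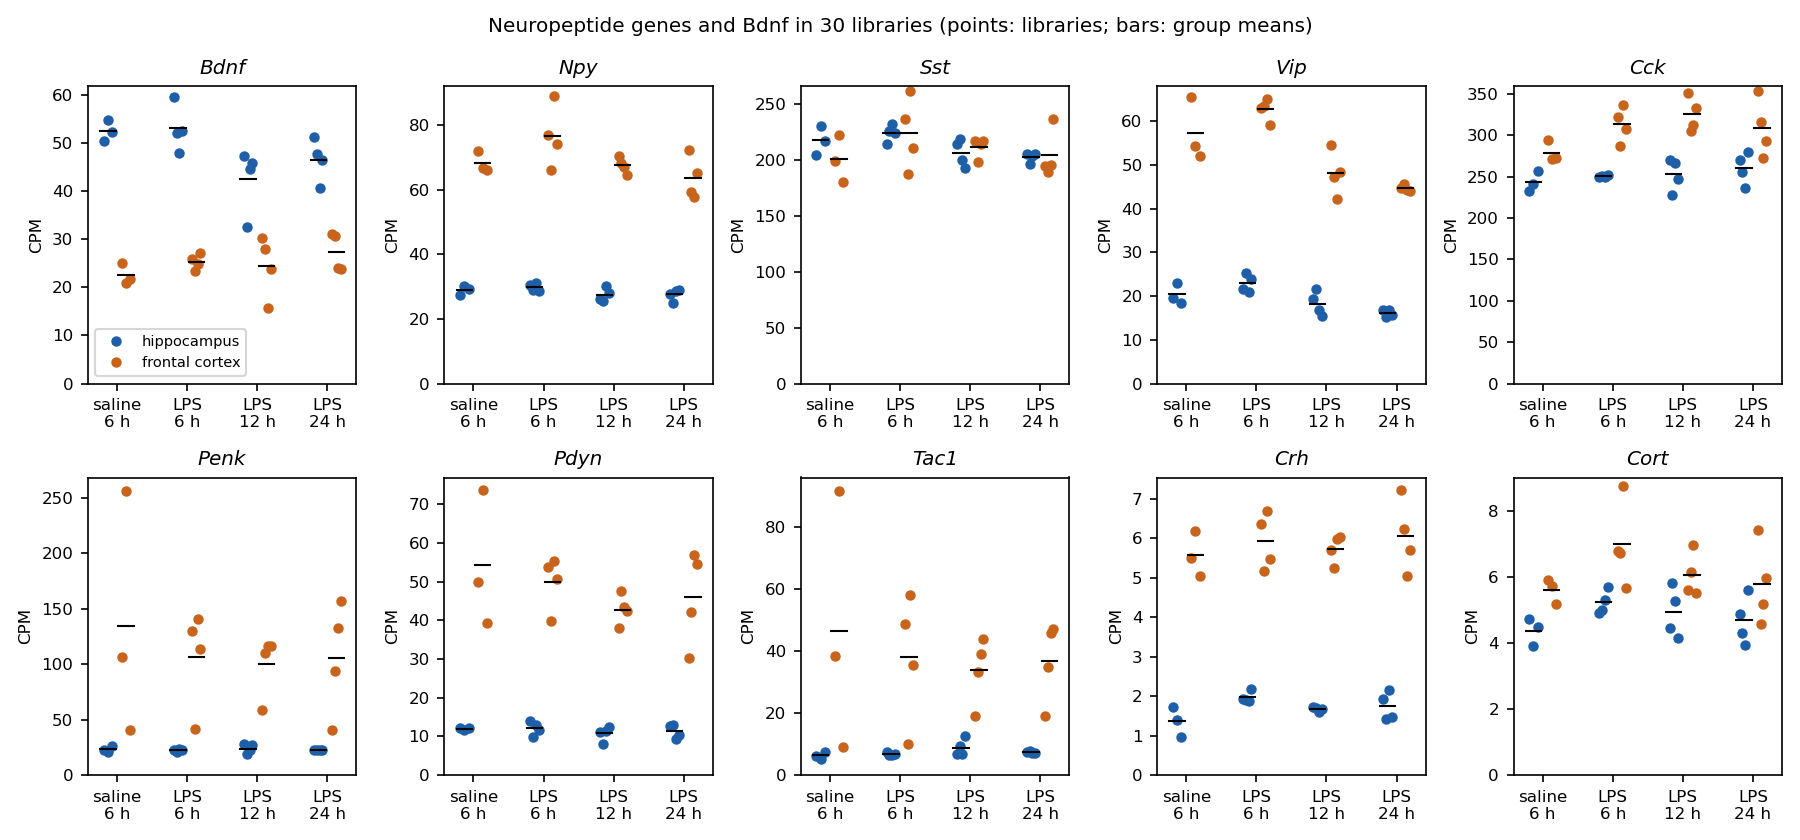
Level of each of the 10 genes (CPM, linear axes from 0) in the hippocampus (blue) and frontal cortex (orange) libraries of the saline 6 h and LPS 6, 12 and 24 h groups, with points for libraries and bars for group means. Vip at 24 h after LPS lies between 15.3 and 16.9 CPM in hippocampus and between 44.2 and 45.6 CPM in cortex, below the saline libraries of the same tissue.

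The counts of members that passed are to be read against all genes. In hippocampus 0, 0 and 1 of 10 members passed at 6, 12 and 24 h against saline, where 5.11%, 12.3% and 13.4% of the 17289 genes tested did. In cortex the counts were 0, 0 and 1 of 10, against 3.5%, 7.13% and 6.11% of 17111 genes. From 6 to 12 h 0 hippocampal and 1 cortical member passed (2.14% and 1.23% of genes), from 12 to 24 h none in either tissue (2.14% and 0%), and from 6 to 24 h 1 in each (9.49% and 1.83%). At an unadjusted p under 0.05 the counts against saline were 1, 2 and 1 in hippocampus and 1, 2 and 1 in cortex. DESeq2 called 0, 2 and 1 hippocampal members at 6, 12 and 24 h and limma-voom 0, 2 and 3, and in cortex these tools called 0, 0 and 1 and 0, 1 and 1. The median log2 change of the 10 members lay between -0.05 and 0.16 over the 6 comparisons, where that of all genes lay between -0.004 and 0.013. These 6 comparisons share their saline libraries within a tissue.

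**Figure D2:**
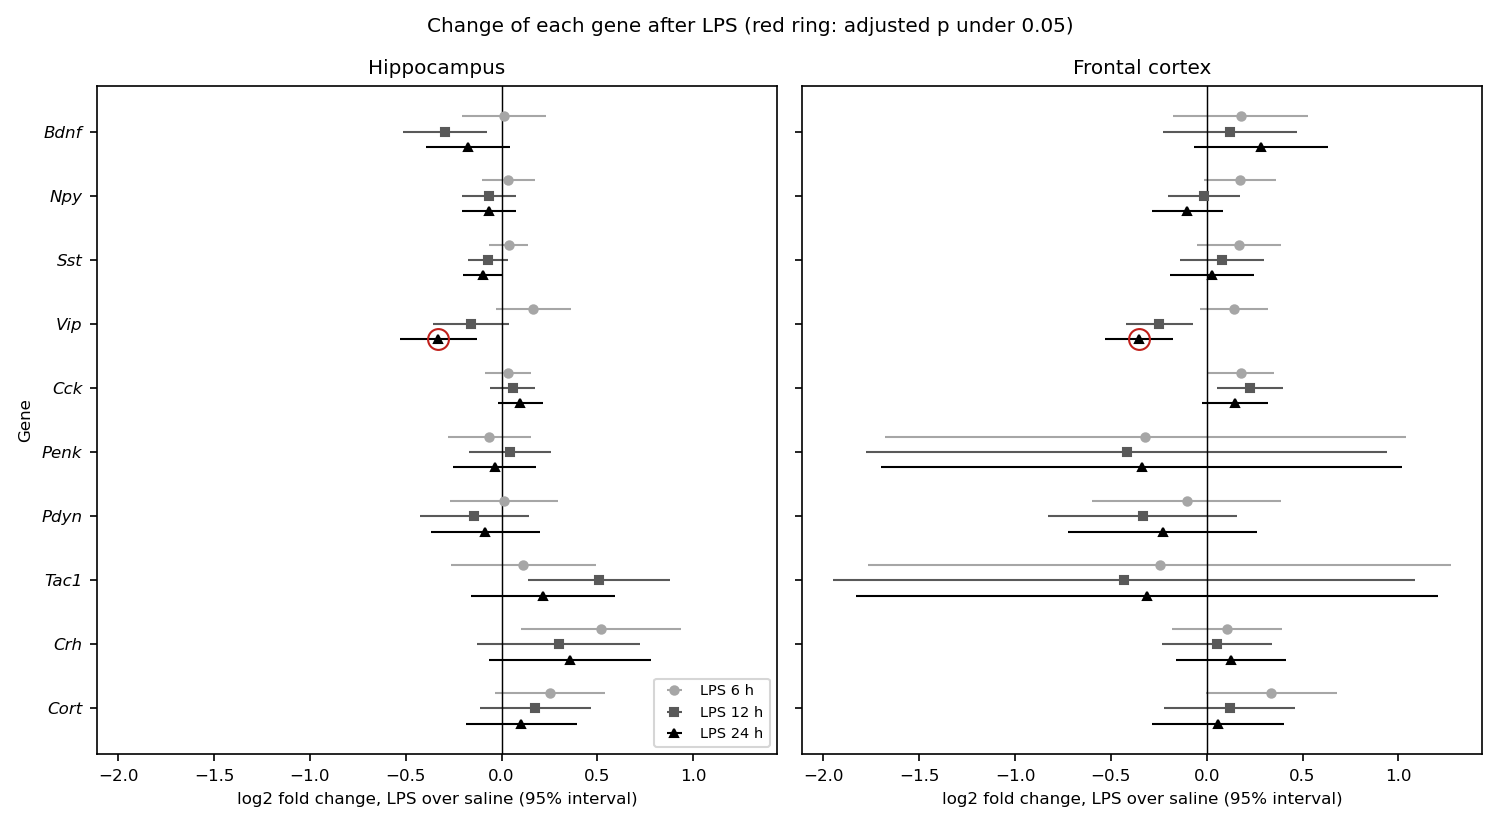
Log2 fold change of each gene after LPS against saline in hippocampus (left) and frontal cortex (right) at 6 h (light circles), 12 h (grey squares) and 24 h (black triangles), with 95% intervals from edgeR, and a red ring where the adjusted p was under 0.05. Vip at 24 h is ringed in both tissues (-0.33 and -0.35), and the cortical intervals of Penk and Tac1 span more than those of the other genes.

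Other peptides of interneurons moved little. Sst, an inhibitor of dendritic input that marks Martinotti-type and related cells, was at 204 to 230 CPM in hippocampal saline libraries, 214 to 232 CPM at 6 h after LPS, 192 to 219 CPM at 12 h and 196 to 206 CPM at 24 h. The groups at 6 and 24 h did not overlap, and the difference of -0.14 ± 0.05 had an edgeR adjusted p of 0.065. It passed with limma-voom (adjusted p = 0.0197), in a fit of these 2 groups alone (0.0242) and without A222 and A261 (0.0433). Against saline Sst was at -0.10 at 24 h (adjusted p = 0.218), and passed with limma-voom (-0.13, 0.0384). In cortex Sst ranged from 180 to 262 CPM with overlap of all groups, and at 24 h against saline the difference was 0.03 (95% interval -0.19 to 0.25). Npy, a peptide that damps excitatory transmission, was at 27.3 to 30.1 CPM in hippocampal saline libraries and at 24.8 to 31.0 CPM after LPS. In cortex it was at 66.2 to 72.1 CPM after saline, 66.2 to 88.9 CPM at 6 h after LPS, 64.5 to 70.4 CPM at 12 h and 57.7 to 72.3 CPM at 24 h, and the difference from 6 to 24 h, -0.28 ± 0.08, had an adjusted p of 0.0962.

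Cck was at 232.6, 240.8 and 257.4 CPM in hippocampal saline libraries and at 228 to 279 CPM after LPS, and the differences from saline, 0.03 to 0.10, did not pass with edgeR. With limma-voom Cck passed at 24 h (0.14, adjusted p = 0.0298). In cortex the saline libraries were at 294, 271 and 272 CPM and the libraries at 12 h after LPS at 352, 306, 312 and 333 CPM. Every 12 h library was above every saline library, and the difference was 0.23 ± 0.08 (edgeR adjusted p = 0.122). It passed with library totals in place of TMM (0.31, adjusted p = 0.0273), with both tissues in 1 fit (adjusted p = 0.049) and with the mouse as a block (0.0388). At 6 h the cortical difference of Cck was 0.18 (adjusted p = 0.255) and at 24 h 0.15 (0.418), with overlap. Cort was low in both tissues, at 3.89 to 4.72 CPM in hippocampal saline libraries and 4.91 to 5.71 CPM at 6 h after LPS, groups that did not overlap, with a difference of 0.25 ± 0.14 (adjusted p = 0.443). In cortex it was at 5.17 to 5.91 CPM after saline and 5.66 to 8.77 CPM at 6 h, with overlap and a difference of 0.34 ± 0.16 (0.269).

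Bdnf was the member with the next smallest adjusted p after Vip and Tac1 among the hippocampal comparisons with saline. Its 3 saline libraries were at 50.4, 54.7 and 52.2 CPM, those at 6 h after LPS at 59.6, 52.0, 48.0 and 52.6 CPM, those at 12 h at 47.3, 32.6, 44.6 and 45.9 CPM, and those at 24 h at 51.2, 47.7, 40.7 and 46.4 CPM. All 12 h libraries were below all saline and all 6 h libraries, while those at 24 h reached into both. The difference at 12 h was -0.29 ± 0.10 against saline (edgeR adjusted p = 0.0787) and -0.31 ± 0.10 against 6 h (adjusted p = 0.126). Against saline it passed with DESeq2 (adjusted p = 0.0379), limma-voom (0.0435) and edgeR with no filter (-0.31 ± 0.06, 2.56e-05). Against 6 h it passed with DESeq2 (0.0434) and with no filter (-0.31 ± 0.06, 1.68e-05). The fit with no filter thus gave similar differences with smaller standard errors. Without A222 and A261 together neither passed, at -0.36 ± 0.13 against saline (edgeR adjusted p = 0.13) and -0.35 ± 0.11 against 6 h (0.157). With no filter Bdnf also passed at 24 h, against saline (-0.19, 0.0284) and against 6 h (-0.19, 0.0194). In cortex Bdnf was at 20.9 to 25.0 CPM after saline and at 15.6 to 31.1 CPM after LPS, with differences from saline of 0.18, 0.12 and 0.28 at 6, 12 and 24 h (adjusted p = 0.575, 0.745 and 0.444). A predicted antisense gene over Bdnf, Gm45346, held at most 0.184 CPM in any library.

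Where the groups of libraries did not overlap, the count was set against all genes. Against saline this held for Cort and Crh in hippocampus at 6 h (15.6% of genes tested), for Bdnf at 12 h (20.2%) and for Vip at 24 h (22.6%), and in cortex for Cck at 12 h and Vip at 24 h (17.7% of genes at each time). Each of these counts, 1 or 2 of 10 members, is near the share of all genes. Between LPS times it held for Bdnf and Crh from 6 to 12 h (10.2% of genes) and Sst and Vip from 6 to 24 h (18.3%) in hippocampus, and for Vip in cortex over both spans (7.43% and 9.03%). From 12 to 24 h it held for 0 members (7.78% of genes in hippocampus and 1.15% in cortex).

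Crh and the opioid and tachykinin precursors did not pass in the main edgeR fit after LPS in either tissue. Crh, the peptide that starts the hormonal stress response when released from the hypothalamus, was scarce in hippocampus. It was at 1.71, 1.39 and 0.974 CPM in the saline libraries and at 1.93, 1.91, 1.87 and 2.17 CPM at 6 h after LPS, all above saline, with a difference of 0.52 ± 0.20 (edgeR adjusted p = 0.187). These levels rest on 25 to 52 counts per library over the 15 hippocampal libraries. In cortex Crh was at 5.04 to 7.23 CPM, and its differences from saline were 0.05 to 0.13.

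Penk in hippocampus was at 20.9 to 26.3 CPM after saline and 18.6 to 27.6 CPM after LPS, and Pdyn at 11.7 to 12.2 and 8.08 to 13.98 CPM. Their hippocampal differences from saline lay between -0.14 and 0.04. Tac1 was at 6.22, 5.29 and 7.40 CPM after saline and at 6.62, 9.39, 6.87 and 12.6 CPM at 12 h after LPS. The highest of these values was that of A261, the hippocampal library with the highest Ttr share. The difference of Tac1 at 12 h was 0.51 ± 0.18 (edgeR adjusted p = 0.0704), with overlapping groups. It passed with DESeq2 (adjusted p = 0.0452), limma-voom (0.0482) and edgeR with no filter (0.49 ± 0.12, 0.00124), where the standard error was smaller. It also passed in edgeR without the saline library A226 (0.0448) or the 12 h libraries A258 (0.0192) or A260 (0.0167). Without A222 and A261 together it was 0.27 ± 0.16 (edgeR adjusted p = 0.364).

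In cortex these 3 genes varied more within a group than between groups. Penk was at 107, 256 and 40.8 CPM in the saline libraries and at 40.3 to 157 CPM after LPS. Tac1 was at 38.4, 91.6 and 9.12 CPM after saline and at 10.1 to 58.1 CPM after LPS. Pdyn was at 50.0, 73.6 and 39.3 CPM after saline and at 30.2 to 56.9 CPM after LPS. Every LPS group overlapped saline for all 3 genes, and the highest saline library was A224 each time. Over the 15 cortical libraries the highest value was 6.36 times the lowest for Penk and 2.44 times for Pdyn, with Tac1 running from 9.12 to 91.6 CPM, whereas for Vip it was 1.55 times and in hippocampus 1.49 times for Penk. The intervals of the LPS differences are accordingly wide: at 24 h, -0.34 for Penk (95% interval -1.70 to 1.02), -0.31 for Tac1 (-1.83 to 1.21) and -0.23 for Pdyn (-0.72 to 0.26). They also turned on 1 library: without A224 the values at 24 h were 0.54, 0.67 and 0.05.

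These values varied with the level of 10 striatal neuron markers, among them the dopamine receptor genes Drd1 and Drd2 and the adenosine receptor gene Adora2a. Their summed level was 193 to 220 CPM in hippocampus and 314 to 1138 CPM in cortex, with no marker at 0. By group it was 324 to 1138 CPM after saline and 354 to 631, 464 to 602 and 314 to 726 CPM at 6, 12 and 24 h after LPS, and A224 was the highest library. Over 15 cortical libraries the log2 level of Penk and that of the marker sum had a Pearson r of 0.969 and a Spearman rho of 0.939. For Pdyn r was 0.918 and rho 0.943, and for Tac1 0.901 and 0.832. The permutation p of r was 1e-05, the smallest that 100000 permutations can give, for Penk and Pdyn and 3e-05 for Tac1, or 5e-05, 5e-05 and 0.0001 adjusted over the 10 genes examined. The adjusted permutation p of rho was 0.0001 for Penk and Pdyn and 0.000833 for Tac1. The permutations shuffled all 15 cortical libraries without regard to group, and so treat libraries of different groups as exchangeable.

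Without A224 and A274, the libraries farthest from the median marker sum, r was 0.96 for Penk, 0.821 for Pdyn and 0.922 for Tac1, and over the 12 LPS libraries 0.964, 0.914 and 0.85. Sst had r = 0.582 and rho = 0.646 (permutation p = 0.0234 and 0.0112, adjusted 0.0584 and 0.028), with r = 0.619 without these libraries. The other 6 members had r between -0.30 and 0.04 (adjusted permutation p of at least 0.511), Vip among them with -0.02. With the marker sum as a covariate, an alternative added after seeing the data, the standard error of the 24 h difference went from 0.62 to 0.15 for Penk, from 0.69 to 0.33 for Tac1 and from 0.23 to 0.07 for Pdyn. In that fit Vip fell by 0.36 at 24 h (edgeR adjusted p = 0.0124), and Pdyn fell by 0.25 ± 0.07 at 12 h (adjusted p = 0.0275), while Penk (0.05) and Tac1 (0.27) at 24 h did not pass.

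**Figure D3:**
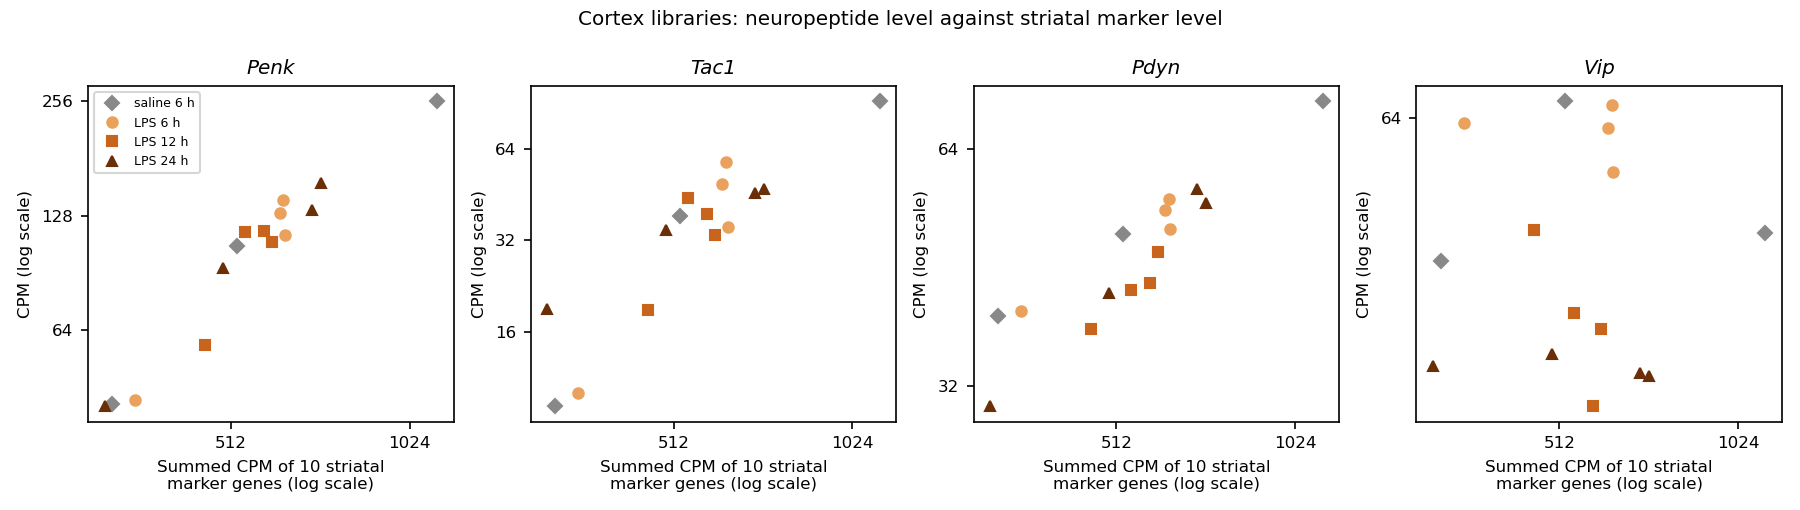
Level of Penk, Tac1, Pdyn and Vip (CPM, log axes) against the summed CPM of 10 striatal marker genes (log axis) in the 15 frontal cortex libraries, with a symbol per group. Penk, Tac1 and Pdyn follow the marker level (r = 0.969, 0.901 and 0.918) and Vip does not (r = -0.018), its 24 h libraries lying at 44.2 to 45.6 CPM over marker sums of 314 to 726 CPM.

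Between the tissues after saline, 7 of 10 members differed, where 37.1% of the 17650 genes tested did. Bdnf was higher in hippocampus, at 52.5 ± 2.18 CPM (SD, n = 3) against 22.6 ± 2.15 CPM (n = 3) in cortex, a fold of 2.33 (95% interval 1.85 to 2.92, edgeR adjusted p = 5.07e-07). Npy was lower there, at 28.9 ± 1.42 against 68.4 ± 3.25 CPM, with a log2 difference of -1.24 (adjusted p = 2.24e-13). Vip was at 20.4 ± 2.30 against 57.3 ± 7.24 CPM (-1.49, adjusted p = 9.28e-14) and Crh at 1.36 ± 0.370 against 5.58 ± 0.577 CPM (-2.02, adjusted p = 2e-11).

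The opioid and tachykinin precursors were lower in hippocampus by amounts that turned on 1 library. Pdyn was at 12.0 ± 0.277 CPM in hippocampus and 54.3 ± 17.5 CPM in cortex (-2.17, edgeR adjusted p = 1.19e-08). Penk was at 23.2 ± 2.78 and 135 ± 110 CPM (-2.52, 95% interval -3.59 to -1.45, adjusted p = 0.000404), and Tac1 at 6.30 ± 1.06 and 46.4 ± 41.8 CPM (-2.85, -4.12 to -1.57, adjusted p = 0.000687). Striatal markers moved with these differences, with 9 of 10 lower in hippocampus, and their part in the difference was not tested. Without A224, the cortical saline library with the highest marker sum, the differences were -1.65 for Penk, -1.87 for Tac1 and -1.89 for Pdyn. All 7 differences between tissues passed under all 14 alternatives.

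Sst, Cck and Cort did not pass between tissues. Sst was at 217 ± 13.1 CPM in hippocampus and 200.5 ± 21.2 CPM in cortex, with overlap and a log2 difference of 0.12 (95% interval -0.06 to 0.30, edgeR adjusted p = 0.322). Cck was at 244 ± 12.6 and 279 ± 13.1 CPM, a difference of -0.20 (-0.36 to -0.03, adjusted p = 0.051), which passed under 8 of 14 alternatives, DESeq2 among them (0.0273). Cort was at 4.37 ± 0.424 and 5.596 ± 0.384 CPM (-0.35, adjusted p = 0.0922). Of the 10 members 9 had tissue groups that did not overlap, the exception being Sst, where 48.9% of all genes had such groups.

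**Figure D4:**
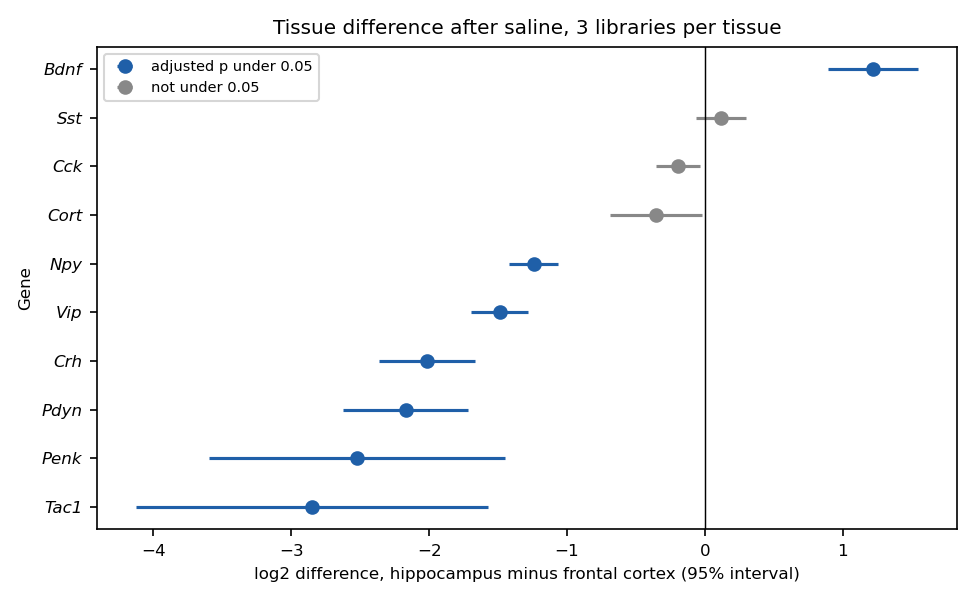
Log2 difference of each gene between hippocampus and frontal cortex after saline (3 libraries each), with 95% intervals from edgeR, in blue where the adjusted p was under 0.05 and grey otherwise. Bdnf lies to the right of 0 (1.22), Sst, Cck and Cort within 0.36 of it, and the other 6 between -1.24 and -2.85.

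The response to LPS was compared between tissues as an interaction. None of the 10 members passed at 6, 12 or 24 h with edgeR, where 0%, 0.0963% and 0.125% of 17650 genes did, and none passed with DESeq2 or limma-voom. At an unadjusted p under 0.05 the counts were 0, 0 and 1, the last being Bdnf at 24 h, with a change in hippocampus minus that in cortex of -0.46 (95% interval -0.89 to -0.02, adjusted p = 0.564). For Vip the difference between the tissues' responses at 24 h was 0.02 (-0.25 to 0.30), which leaves room for a response differing by a fold of 0.841 to 1.23. For Tac1 the interval at 24 h, -1.16 to 2.20, was too wide to place the tissues in any order.

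Levels can be compared between genes only per length, here as CPM per kilobase of the exons annotated for each gene. After saline the order in hippocampus was Sst (301 ± 18.2, n = 3), Cck (187 ± 9.67), Npy (51.1), Penk (14.2), Bdnf (8.44), Cort (6.45), Vip (5.99), Pdyn (4.15), Tac1 (1.85) and Crh (1.03) CPM per kilobase. The libraries of neighbours overlapped only for Cort and Vip. In cortex the order was Sst (libraries from 249.9 to 308.5), Cck (214 ± 10.1), Npy (121), Penk (82.4), Pdyn (18.8), Vip (16.9), Tac1 (13.7), Cort (8.27), Crh (4.23) and Bdnf (3.63). There every neighbour pair from Npy to Cort overlapped, as did Crh and Bdnf. With the length of the longest protein-coding transcript in place of all exons, Cck came first in both tissues, at 305 against 301 for Sst in hippocampus, and Bdnf stood below Vip in hippocampus (12.3 against 13.3) and above Crh in cortex (5.29 against 4.23). The place of these genes therefore depends on the length used.

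The genes whose log2 level over the 15 hippocampal libraries was most like that of Vip were Sst (Pearson r = 0.86), Map2k6 (0.853) and Acss2 (0.85), among 10022 genes searched. In cortex they were Rtn4 (0.87), Idh2 (0.866) and Zfp110 (0.857), among 10160. These values describe libraries that share groups and time points.

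Receptors through which the members act were listed beside them. Counts for this list and those below are to be read against all genes. Against saline, 5.11%, 12.3% and 13.4% of all genes passed in hippocampus at 6, 12 and 24 h. In cortex 3.5%, 7.13% and 6.11% did. Of 22 listed receptors 19 were tested in hippocampus, and 3 rose at 6 h, 4 rose and 2 fell at 12 h, and 2 fell at 24 h, with a median log2 change of 0.11, 0.13 and -0.02 beside -0.004, 0.006 and -0.003 for all genes. Tacr1, the receptor for substance P, rose by 0.79 ± 0.21 at 12 h (edgeR adjusted p = 0.0127). Tacr3, another tachykinin receptor, rose by 0.63 ± 0.17 at 6 h and 0.71 ± 0.17 at 12 h (edgeR adjusted p = 0.0262 and 0.00496). Crhr1, the main receptor for corticotropin-releasing hormone, rose by 0.41 and 0.50 at these times (0.0244 and 0.00254) and was at 0.08 at 24 h (0.721). Npy1r, a receptor of neuropeptide Y, fell from 37.2 CPM after saline to 25.8 CPM at 12 h and 28.8 CPM at 24 h, by 0.53 ± 0.06 and 0.37 ± 0.06 (adjusted p = 2.93e-06 and 0.000211). Npy5r fell by 0.30 at 12 h (0.0414). Ntrk2, the receptor for brain-derived neurotrophic factor, fell by 0.21 ± 0.05 at 24 h (0.0113).

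In cortex 20 receptors were tested, and the count that rose was 1 at each time, with 1 fall at 12 h. The one that rose was Sstr2, a somatostatin receptor, from 12.5 CPM after saline to 17.6, 16.3 and 19.0 CPM at 6, 12 and 24 h, by 0.50, 0.38 and 0.60 on the log2 scale (edgeR adjusted p = 0.00873, 0.0289 and 0.00111). Sstr2 also rose in hippocampus at 6 h (0.40, 0.0412) and 12 h (0.35, 0.0446), and was at 0.27 at 24 h (0.124). Ntrk2 fell by 0.36 in cortex at 12 h (0.0393). Vipr1, a receptor for vasoactive intestinal peptide, did not pass at 24 h, with -0.02 in hippocampus (95% interval -0.19 to 0.15, adjusted p = 0.919) and 0.03 in cortex (-0.15 to 0.22, 0.911). From 6 to 24 h, 6 of 19 hippocampal receptors fell, where 9.49% of all genes passed. They were led by Ngfr (-0.96, edgeR adjusted p = 0.0108) and Cckbr, the main brain receptor for cholecystokinin (-0.79, 0.00131). None of 20 passed in cortex (3 at an unadjusted p under 0.05), where 1.83% of all genes did.

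Of 17 genes that process peptides or build dense-core vesicles, 1 rose at 6 h, 1 rose and 3 fell at 12 h, and 2 rose and 2 fell at 24 h in hippocampus, and in cortex 0, then 1 up and 2 down, then 1 up and 1 down passed. Vgf, a secretory granule protein cut into peptides of its own, fell in hippocampus by 0.29 ± 0.06 at 12 h and 0.39 ± 0.06 at 24 h (edgeR adjusted p = 0.00223 and 8.23e-05). Sort1, the sortilin gene, whose product sorts neurotrophin precursors, fell by 0.15 and 0.17 (0.0479 and 0.0239). Ece1, a peptide-cleaving enzyme also made by endothelial cells, rose by 0.38, 0.63 and 0.39 at the 3 times in hippocampus (0.024, 0.000147 and 0.00924) and by 0.43 and 0.42 in cortex at 12 and 24 h (0.0378 and 0.0436). The summed level of 8 endothelial markers in hippocampus was 187 to 205 CPM after saline and 186 to 200.5 CPM at 6 h. It was 175 to 214.7 CPM at 12 h and 249 to 257.7 CPM at 24 h, and its part was not tested. In cortex Chgb, a granule protein, fell by 0.35 at 12 h and 0.34 at 24 h (0.0283 and 0.036), and Scg2, a relative, by 0.29 at 12 h (0.0476).

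Of 22 other neuropeptide and neurotrophin genes, 17 were tested in hippocampus and 15 in cortex. At 12 and 24 h, 12.3% and 13.4% of all genes passed in hippocampus, and 7.13% and 6.11% in cortex. In hippocampus Nppc, which encodes C-type natriuretic peptide, fell by 0.87 at 12 h and 0.71 at 24 h (edgeR adjusted p = 0.00427 and 0.0165), Nmb (neuromedin B) by 0.82 at 12 h (0.0229), and Cartpt, a peptide precursor of some granule and hilar neurons, rose by 0.80 at 12 h (0.0179). In cortex Adcyap1, the gene of a peptide that shares receptors with vasoactive intestinal peptide, fell by 0.57 at 12 h and 0.51 at 24 h (0.00465 and 0.0113), and Nrn1, an activity-regulated neuritin, by 0.40 and 0.39 (0.0377 and 0.0443).

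Genes of GABAergic interneurons were listed to set the fall of Vip beside the cells that make it. Their summed level over 16 genes was 1765 to 1862 CPM after saline in hippocampus and 1615 to 1768 CPM at 24 h after LPS. In cortex it was 1982 to 2084 CPM after saline and 1729 to 1962 CPM at 24 h, with no overlap. The cortical sum was already below saline at 6 h (1795 to 1870 CPM) and at 12 h (1679 to 1859 CPM), and its 24 h libraries overlapped both. Cortical Vip at 6 h was at 59.2 to 65.2 CPM, against 52.1 to 65.6 CPM after saline. Microglial markers were higher at 24 h than after saline. Their sum over 8 genes went from 203 to 250 CPM to 350 to 385 CPM in hippocampus. In cortex it went from 195 to 247 CPM to 282 to 392 CPM. The part of either in the fall of Vip was not tested. Of the 16 genes 1 rose and 2 fell in hippocampus at 24 h, and 1 fell in cortex, where 13.4% and 6.11% of all genes passed. The medians were -0.07 and -0.13 beside -0.003 and -0.001 for all genes. Lamp5, a marker of neurogliaform interneurons that is also made by cortical principal neurons, fell in hippocampus from 52.5 CPM after saline to 36.3 CPM at 12 h and 29.3 CPM at 24 h, by 0.53 ± 0.06 and 0.84 ± 0.06 (edgeR adjusted p = 1.49e-06 and 1.8e-09). In cortex it fell by 0.51 at 12 h and 0.44 at 24 h (0.0138 and 0.0386). Calb1, the calbindin gene, fell in hippocampus by 0.27 and 0.30 at these times (0.0157 and 0.00737), and Nos1, which marks another interneuron class, rose by 0.45 and 0.35 (0.000658 and 0.00495). In bulk tissue these values do not show which cells changed, interneurons or others. Gad1, which encodes a GABA-synthesizing enzyme shared by GABAergic neurons, had a cortical value of -0.17 at 24 h (0.232).

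Glucocorticoid-responsive genes were listed because every mouse had received CORT and because Crh and Bdnf are known to respond to glucocorticoids. Of 15 such genes 11, 14 and 13 fell in hippocampus at 6, 12 and 24 h, where 5.11%, 12.3% and 13.4% of all genes passed in either direction. In cortex 7, 11 and 11 fell, where 3.5%, 7.13% and 6.11% of all genes passed. Sgk1, a kinase gene induced by glucocorticoids, fell from 121 CPM after saline to 50.6 CPM at 6 h in hippocampus (-1.27, edgeR adjusted p = 0.000218) and from 135 to 51.3 CPM in cortex (-1.38, 0.00273). Nr3c1, the glucocorticoid receptor gene, was the 1 of the 15 that rose in hippocampus at each time. Activity-dependent genes, 15 in all, are a class that includes Bdnf's usual companions Fos, Arc and Egr1. Of these 15, 3 fell in hippocampus at 12 h, where 12.3% of all genes passed. They were Nr4a1 (-0.65, edgeR adjusted p = 0.0435), Egr4 (-0.51, 0.00256) and Dusp1 (-0.41, 0.0149), with Fos, Arc and Egr1 not among them. At 6 h 1 rose, Ier2 (0.53, 0.00494), at 24 h 1 rose, Fos (0.99, 0.0219), and none passed in cortex at any time (1, 0 and 0 at an unadjusted p under 0.05).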

How the data were processed

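The authors deposited whole-number read counts per gene for 30 stranded poly(A) libraries read as 150-base pairs, per the labels' protocols. The submitters' processing notes name Trim Galore 0.4.1, FastQC, STAR 2.6.0a, DESeq2 and the build GRCm38 (mm10). Which program counted the reads, with which strand setting and gene models, is not given in the sources used here, so reads of Bdnf and Penk may include those of overlapping antisense genes, which held 0 to 4 counts per library. GENCODE M21 supplied symbols for 98.4% of the 48820 identifiers, and the gene coordinates. Promoter sequences are from RefSeq (GRCm38.p6).

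From these counts edgeR 4.0.16 (R 4.3.3) fitted the 15 libraries of each tissue, and all 30 together for interactions and for the tissues after saline. It used TMM factors, filterByExpr (count of 10, sum of 15), robust glmQLFit and glmQLFTest. Benjamini-Hochberg adjustment ran over the 17289 genes tested in hippocampus, 17111 in cortex and 17650 in both, with calls under 0.05 in two-sided tests. CPM carry the TMM factors of the 30-library fit (0.956 to 1.052). The common biological coefficient of variation was 0.0691, 0.103 and 0.0879. The fit was tested on simulated data.

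The members and all gene lists were chosen with earlier results of these data known. Members are always named, and of each other list up to 4 genes per comparison, called genes by size and then uncalled genes by p. Vipr1, Nr3c1 against saline, Npy5r and Sstr2 in hippocampus at 12 h and Crhr1 there at 24 h fall outside this rule and were named after their values were seen. Within groups, libraries differed beyond counting noise (chi-square per gene 2.14 to 23.1). Mouse codes in the labels pair the tissues of 14 mice, whose deviations from the group means over 13591 genes had a median r of 0.104 (-0.0617 to 0.293).

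Each result was recomputed with DESeq2 size factors, with library totals, unfiltered, with a filter of 1 CPM and 10 reads in at least 4 libraries, with DESeq2 1.42.0, with limma-voom and quality weights (limma 3.58.1), with the compared groups alone, with both tissues together, with mouse as a block, and leaving out each library. A striatal marker covariate and the joint removal of hippocampal A222 and A261 were added after seeing the data.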

Additional observations from a re-analysis of the deposited data

Results flagged for a closer look

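Single libraries stood apart from the rest of their group by Dixon's criterion at the 95% level in 3 cases, among 60 groups of 4 libraries examined, where chance marks about 1 in 20 groups. Sst in the cortex at 12 h after LPS was at 198 CPM in the library of mouse A259, with the others at 214 to 217 CPM. Sst in the cortex at 24 h was at 236 CPM in A278, with the others at 189 to 196 CPM. Penk in the cortex at 12 h was at 58.6 CPM in A258, with the others at 109 to 116 CPM. The summed striatal marker level of these libraries was 602 CPM in A259 (the highest of its group, with the lowest Sst), 726 CPM in A278 (the highest of its group) and 464 CPM in A258 (the lowest of its group), and the part of these markers was not tested.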

How the results depend on the processing

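Over 42 alternatives 2900 values of members were recomputed: 41 gained a call, 11 lost one, no called value reversed, 16 uncalled values moved by more than their standard error (mostly Penk, Tac1 and Pdyn in cortex without A224), 139 uncalled values changed sign, and 2832 in all counted as unchanged. The counts that follow, against saline and between LPS times, are of calls summed over the 3 comparisons of a set. A member called in more than 1 comparison counts more than once. The count against saline in hippocampus, 1, was 0 with library totals, 4 with no filter, 3 with DESeq2, 5 with limma-voom and 0 to 2 with a library left out. In cortex, also 1, it was 2 with limma-voom, with both tissues in 1 fit, with the mouse as a replicate block and with the striatal covariate, and 0 to 2 with a library left out. With library totals Vip lost its call (adjusted p = 0.0548) and Cck gained one. Between LPS times in hippocampus the count of 1 was 5 with no filter, 3 with DESeq2 and with limma-voom, 2 in fits of 2 groups and without A222 and A261 together, and 1 to 2 with a library left out. In cortex the count of 2, both of them Vip, was 1 with limma-voom, 3 with both tissues in 1 fit and with the block, and 1 to 3 with a library left out. Members called between tissues after saline were 7 to 9 over 14 alternatives, 8 with the mouse as a random block and 7 as a fixed one. The block called no interaction and changed no other call than Cck at 12 h, Npy from 6 to 24 h in cortex (adjusted p = 0.0267) and Cck between tissues (0.0407). The cause was not tested. Depth limits Crh in hippocampus most, at 25 to 52 counts per library.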
